A study of Homo sapiens with 2 samples.

Results

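The alcohol and aldehyde dehydrogenases described here are 10 genes, ADH5, ADH7, ALDH1A1, ALDH1A3, ALDH2, ALDH3A1, ALDH3A2, ALDH3B2, ALDH7A1 and ALDH9A1. They were chosen by symbol, taking every probe set that the platform annotation pairs with exactly 1 gene, which gave 17 of 54675 probe sets and 10 of 19775 named genes. RNA came from KYSE170-luc, a human esophageal squamous carcinoma line carrying luciferase, and was measured on 2 Affymetrix arrays. On 1 array the cells had been transfected with an empty vector and on the other with a SOX17 expression plasmid, both for 12 h in 10 cm plates, per the labels. SOX17 is a transcription factor of the SOX family, and the comparison asks which transcripts differ shortly after it is introduced. With 1 array per group there is no replicate, no test and no p-value, and every difference below is between these 2 arrays.

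Alcohol dehydrogenases oxidise alcohols to aldehydes with NAD+ as the acceptor, and aldehyde dehydrogenases oxidise aldehydes on to acids. Together they clear ethanol and acetaldehyde, formaldehyde and the aldehydes of lipid peroxidation, and they turn retinol into retinoic acid, which controls the differentiation of squamous epithelium. In the esophagus the family is best known for the link between acetaldehyde exposure and squamous carcinoma.

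The promoters of ADH5 and ALDH9A1 are shown because these had the highest ratios of SOX17 over empty vector among the measured members, and that of ALDH1A3 because it was the retinoic acid-forming member measured on both arrays, with a ratio near 0. Each is a RefSeq window in GRCh38.p14, 250 bases before to 50 after the gene's start, written 5′ to 3′ on the gene's strand, with motif matches in capitals.
ADH5, chr4:99088739-99089038, minus strand: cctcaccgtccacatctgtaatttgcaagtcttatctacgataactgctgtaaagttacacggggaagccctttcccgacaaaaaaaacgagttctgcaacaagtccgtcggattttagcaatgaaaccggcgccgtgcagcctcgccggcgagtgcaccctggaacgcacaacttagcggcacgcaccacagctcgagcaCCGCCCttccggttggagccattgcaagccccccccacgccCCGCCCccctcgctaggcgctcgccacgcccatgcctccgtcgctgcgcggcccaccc
ALDH9A1, chr1:165698513-165698812, minus strand: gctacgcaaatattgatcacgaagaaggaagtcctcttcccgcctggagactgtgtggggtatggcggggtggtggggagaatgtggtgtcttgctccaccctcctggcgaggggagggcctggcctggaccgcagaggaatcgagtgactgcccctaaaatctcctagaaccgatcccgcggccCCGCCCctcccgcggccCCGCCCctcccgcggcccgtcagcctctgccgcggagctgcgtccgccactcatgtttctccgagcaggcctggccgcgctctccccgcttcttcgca
ALDH1A3, chr15:100879581-100879880, plus strand: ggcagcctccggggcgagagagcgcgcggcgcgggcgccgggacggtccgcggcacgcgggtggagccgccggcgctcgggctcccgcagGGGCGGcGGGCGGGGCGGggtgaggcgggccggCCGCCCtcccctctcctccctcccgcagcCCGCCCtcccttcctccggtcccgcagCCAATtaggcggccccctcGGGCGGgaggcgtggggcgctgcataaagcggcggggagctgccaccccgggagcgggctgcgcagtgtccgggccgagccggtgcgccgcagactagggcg
The motifs searched on both strands were the SOX core ATTGT, the CCAAT box CCAAT, the GC box GGGCGG, the core of the antioxidant response element TGACNNNGC and the TATA box TATAAA. In these 3 windows the capitals are GC boxes, 2 in ADH5, 2 in ALDH9A1 and 6 in ALDH1A3, and 1 CCAAT box in ALDH1A3. GC boxes of ALDH1A3 that overlap share a run of capitals. A window was found for 7 of the 10 genes, and for ALDH2, ALDH3A1 and ALDH3B2 none was used here. ADH7 and ALDH3A2 each had 2 windows, which made 9 in all. The 2 windows of ADH7 overlap, so the 9 are not all separate sequences.

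Across the 9 windows the GC box was in 5, against 45.0% of all 35116 windows, and the CCAAT box in 4, against 34.6%. The SOX core was in 2 windows, 1 of ADH7 and that of ALDH7A1, against 27.4% of all windows. The antioxidant response element core was in 0 of the 9, against 13.3% of all, and the TATA box in 1, of ADH7, against 11.5%. GC content ran from 39.0% in that window of ADH7 to 81.7% in ALDH1A3, with 61.3% in ADH5 and 66.7% in ALDH9A1, and the median of all windows was 58.7%. A match shows only that the letters are present, and no match says nothing about the factor.

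The deposited values are linear intensities. A probe set was called measured when it lay at or above an intensity of 95 on both arrays, the 60th percentile of all values pooled. Where a gene had several, the one of highest mean log2 intensity stood for it. By this rule 5 of the 10 dehydrogenase genes were measured, beside 50.7% of all named genes. They were ADH5, ALDH1A3, ALDH3A1, ALDH3A2 and ALDH9A1, with 8 measured probe sets. The other 9 probe sets lay below the floor on both arrays.

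**Figure D1:**
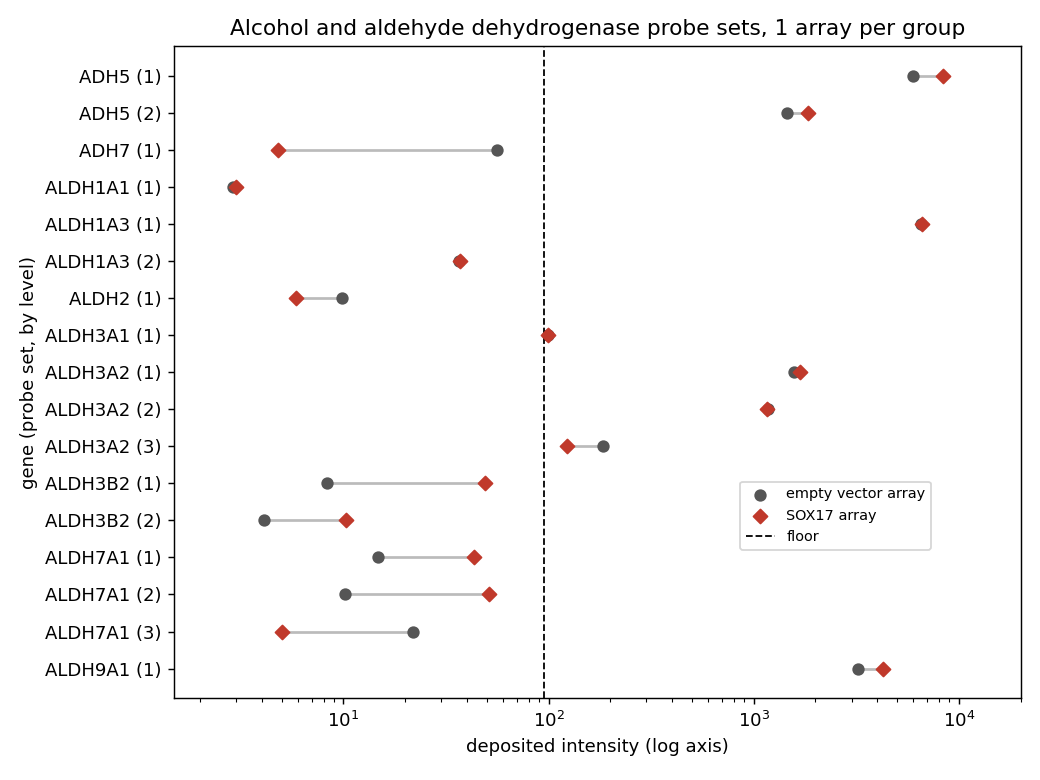
Deposited intensity (log axis) of each of the 17 dehydrogenase probe sets on the empty vector array (grey circles) and the SOX17 array (red diamonds), with the floor of 95 as a dashed line. The 8 measured probe sets lie to the right of the line, ALDH3A1 close to it, and both probe sets of ADH5 and that of ALDH9A1 have the red point to the right of the grey one.

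2 of the 5 measured genes were higher on the SOX17 array by a modest factor and the other 3 were close to even. ADH5 was 1.40-fold and ALDH9A1 1.32-fold higher, while ALDH3A2, ALDH1A3 and ALDH3A1 had log2 ratios of SOX17 over empty vector of 0.10, 0.01 and -0.01. At 1.5-fold, by the probe set standing for each gene, 0 members were higher and 0 lower. Of the 10034 measured genes, 3.78% were higher and 3.19% lower. A dimmer measured probe set of ALDH3A2, 210544_s_at, was 1.5-fold lower. Past 0.32 on the log2 scale, a lower threshold, 2 of 5 were higher and 0 lower, beside 15.0% and 13.0% of measured genes. The median log2 ratio of the 5 genes was 0.10 and that of all measured genes 0.03. A ratio above 0 was found for 4 of the 5, beside 54.6% of measured genes. ALDH1A3 and ALDH3A2, both among the 4, fell to -0.02 and -0.17 at the lowest under other processing. In bulk RNA, a change in the number of cells that hold a transcript and a change per cell cannot be told apart.

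ADH5 is the class III alcohol dehydrogenase, which oxidises the adduct of formaldehyde and glutathione and also reduces S-nitrosoglutathione. Its probe set 208847_s_at read 5966.1 with empty vector and 8341.2 with SOX17. Its other probe set, 208848_at, read 1447.8 and 1833.6. Both thus read higher on the SOX17 array, with log2 ratios of 0.48 and 0.34. Where a gene has several probe sets, the gap between their ratios gives an estimate of error within the arrays. In the top tertile of level among measured genes, where 208847_s_at lay, that SD was 0.175 for 1 log2 ratio. It was 0.256 in the middle tertile, where 208848_at lay. This SD leaves out the spread between cultures and any error that the probe sets of a gene share. A real difference between the transcripts they detect would count in it as error. In the top tertile, 49 of 3345 genes (1.46%) had a log2 ratio at least as high as that of the first ADH5 probe set. Such a share is given only for ADH5 and ALDH9A1, which had the highest ratios of the measured members. It describes their rank and is no test. ESD, no member of the family, is the hydrolase that takes the next step of formaldehyde oxidation. It read 6243.2 and 6363.4 on 215096_s_at, a log2 ratio of 0.03. Its other measured probe sets were 209009_at, at 5886.1 and 6567.4 (0.16), and 228162_at, at 438.3 and 433.8 (-0.01).

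ALDH9A1 oxidises trimethylaminobutyraldehyde in carnitine synthesis, and aminobutyraldehyde to the transmitter GABA. Its 1 probe set, 201612_at, read 3226.1 with empty vector and 4263.3 with SOX17. The log2 ratio was 0.40, and 101 of 3345 genes (3.02%) of the same tertile of level had one at least as high. No second probe set of ALDH9A1 was named, so this value has no check within the arrays.

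ALDH3A2, the fatty aldehyde dehydrogenase of the endoplasmic reticulum, whose loss causes Sjögren-Larsson syndrome, had 3 measured probe sets. 202053_s_at read 1569.3 with empty vector and 1686.2 with SOX17. 202054_s_at read 1178.6 and 1159.3, and 210544_s_at read 184.3 and 122.7. The first of these was thus slightly higher on the SOX17 array, the second nearly even and the third lower, with log2 ratios of 0.10, -0.02 and -0.59. Their mean was -0.17, so the sign for this gene depended on how its probe sets were combined. The SD of 1 log2 ratio was 0.256 in the middle tertile of level, where the first lay, and 0.354 in the lowest tertile, where the last lay.

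ALDH1A3 is 1 of the cytosolic enzymes that oxidise retinaldehyde to retinoic acid. Its probe set 203180_at read 6581.2 with empty vector and 6632.8 with SOX17, a log2 ratio of 0.01. The other, 1558649_at, read 36.5 and 37.2, below the floor on both. Both probe sets were nearly even between the arrays, and only the first was measured. ALDH1A1, the other retinaldehyde dehydrogenase among the members, read 2.9 and 3.0 on its 1 probe set.

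ALDH3A1, a cytosolic enzyme for aromatic and medium-chain aldehydes that is abundant in the cornea, had 1 probe set, 205623_at. It read 99.7 with empty vector and 99.2 with SOX17. Both values lay just above the floor, and with a floor at the 75th percentile the gene was not measured. The SD of 1 log2 ratio was 0.354 over the whole lowest tertile of level. None was computed for values this close to the floor.

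**Figure D2:**
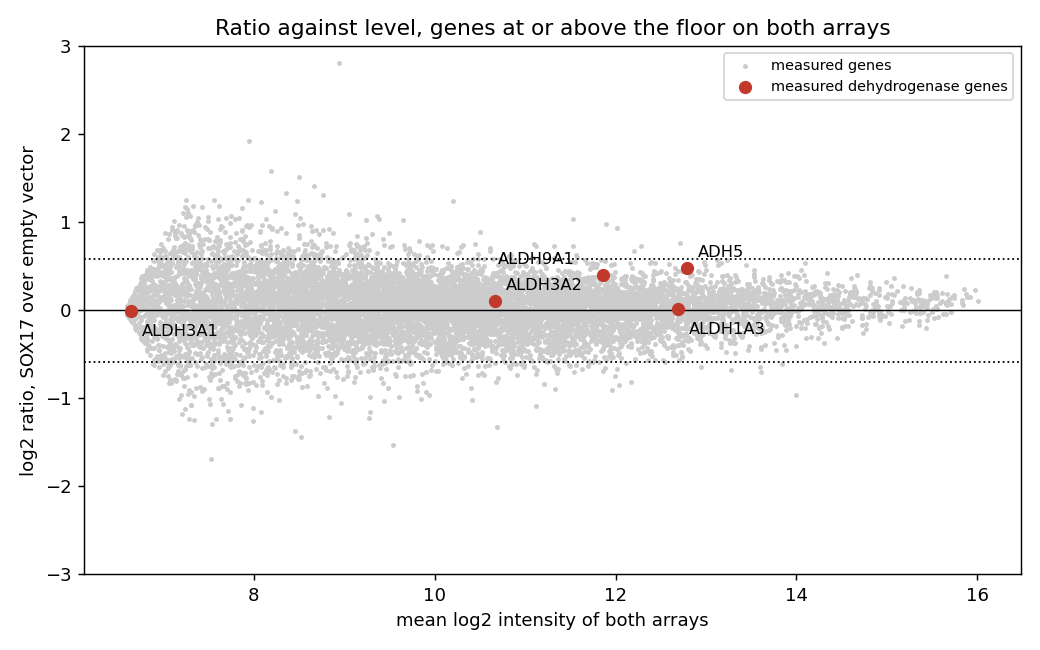
Log2 ratio of SOX17 over empty vector against the mean log2 intensity of both arrays, for the 10034 measured genes (grey) and the 5 measured dehydrogenase genes (red), with dotted lines at 1.5-fold. All 5 red points lie between the dotted lines, with ADH5 at 0.48 and ALDH9A1 at 0.40 nearest to the upper line.

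The 5 remaining genes, ADH7, ALDH1A1, ALDH2, ALDH3B2 and ALDH7A1, had 8 probe sets, which read between 2.9 and 55.8. No fold is given for them, because all values lay under the floor. ADH7, the class IV enzyme of the upper digestive tract that oxidises ethanol and retinol, read 55.8 with empty vector and 4.8 with SOX17. ALDH2, the mitochondrial enzyme that removes acetaldehyde, read 9.8 and 5.9. ADH7 and ALDH2 thus read lower on the SOX17 array, each on its only probe set.

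ALDH3B2, a relative of ALDH3A1 linked to lipid aldehydes, read 8.3 with empty vector and 49.0 with SOX17 on 204942_s_at. Its other probe set read 4.1 and 10.3. ALDH7A1, the antiquitin of lysine breakdown, read 14.7 and 43.5 on 208951_at, 10.2 and 51.3 on 208950_s_at and 21.8 and 5.0 on 213591_at. Both ALDH3B2 probe sets were higher on the SOX17 array, while those of ALDH7A1 went opposite ways. Gaps of 2-fold were common at these intensities. Among 21112 named probe sets under the floor on both arrays, 49.3% differed by 2-fold or more, with a median factor of 1.96. The share with gaps as wide as the widest here was not computed. Readings under the floor do not show that a transcript was absent.

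In the RefSeq table ADH5 and ADH7 stand at the ends of the run of alcohol dehydrogenase genes on chromosome 4, in the order ADH5, ADH4, ADH6, ADH1A, ADH1B, ADH1C and ADH7. Of these 7 genes ADH5 was measured and the other 6 were not. ADH4, a liver enzyme, reached the floor on 1 array, at 102.1 with empty vector and 42.8 with SOX17, on a probe set whose ID ends in _x_at. ADH1A, ADH1B and ADH1C are close in sequence, so their probe sets can share signal. ALDH3A2 and ALDH3A1 lie on chromosome 17 with SLC47A2 as the 1 protein-coding gene between them.

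Of 17 further genes of both families, 7 were measured, beside 50.7% of all named genes. A ratio above 0 was found for 6 of the 7, beside 54.6% of measured genes. At 1.5-fold, 2 were higher and 0 lower, beside 3.78% and 3.19% of all measured genes. ALDH16A1 read 197.6 with empty vector and 365.0 with SOX17 (log2 ratio 0.89). ALDH1L1, which oxidises formyltetrahydrofolate, read 119.5 and 220.5 (0.88), but its other probe set read 115.4 and 68.5. ALDH6A1, an enzyme of valine breakdown, had a log2 ratio of 0.38, and 0.02 on its other measured probe set. Both genes past 1.5-fold lay in the lowest tertile of level, where 8.76% of genes were that much higher. The median of the 7 was 0.17. ALDH1A2, a further retinaldehyde dehydrogenase, was chosen after its values were seen. On 207015_s_at it read 12.5 with empty vector and 109.7 with SOX17, at least 1.15-fold higher by the floor. That bound rests on 1 reading near the floor and leaves out its error. The other probe set, 207016_s_at, read 9.2 and 39.3, below the floor on both arrays. ALDH5A1, also picked by its values, read 78.5 and 152.6 on 203608_at, at least 1.61-fold higher by the floor. Its other probe set, 203609_s_at, went the other way, at 11.4 and 5.7, below the floor on both arrays. ADH4 reached the floor with empty vector only, at least 1.07-fold lower with SOX17 by the floor.

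Many of the carbonyl-reducing and related enzymes take aldehydes and ketones back to alcohols. Their list had a median of 0.21 over 12 measured genes, with 2 at least 1.5-fold higher and 0 lower. Over all measured genes the median was 0.03, and 3.78% were that much higher and 3.19% lower, which holds beside each list here. AKR1C3 read 1686.5 and 2830.4 (log2 ratio 0.75), CBR3 422.4 and 684.5 (0.70) and AKR7A2 2562.5 and 3422.2 (0.42, and 0.20 on its other probe set). Retinoid enzymes and binding proteins had a median of 0.03 over 10 measured genes, with 1 higher and 0 lower at 1.5-fold. These were led by the acyltransferase DGAT1 (0.59), the retinaldehyde reductase DHRS3 (0.53) and the retinol dehydrogenase DHRS9 (0.42). DGAT1 and DHRS9 lay in the lowest tertile of level, where 8.76% of genes were at least 1.5-fold higher. The unmeasured DHRS9 probe sets went opposite ways, 224009_x_at from 69.3 to 125.2 and 223952_x_at from 55.8 to 16.4. Of 8 measured retinoic acid receptors and targets, 3 were higher, RARG (0.88), RXRB (0.74) and PLAAT4 (0.67), and 1 was lower, RARA (-0.86). All 4 lay in the lowest tertile of level, where 8.76% of genes were that much higher and 5.95% lower, and RARG at 95.3 on the empty vector array just reached the floor. Of 8 measured genes of ethanol, acetate and formaldehyde handling 1 was higher, the acetyl-CoA synthetase ACSS2 (0.81), in the lowest tertile too. ACSS1 (0.45) and catalase, CAT (0.43), followed, but the other measured probe set of CAT went from 246.0 to 189.4. ACSS1 also lay in the lowest tertile and, at 101.8 with empty vector, near the floor. DHRS3 stands on both retinoid lists and was counted in each.

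**Figure D3:**
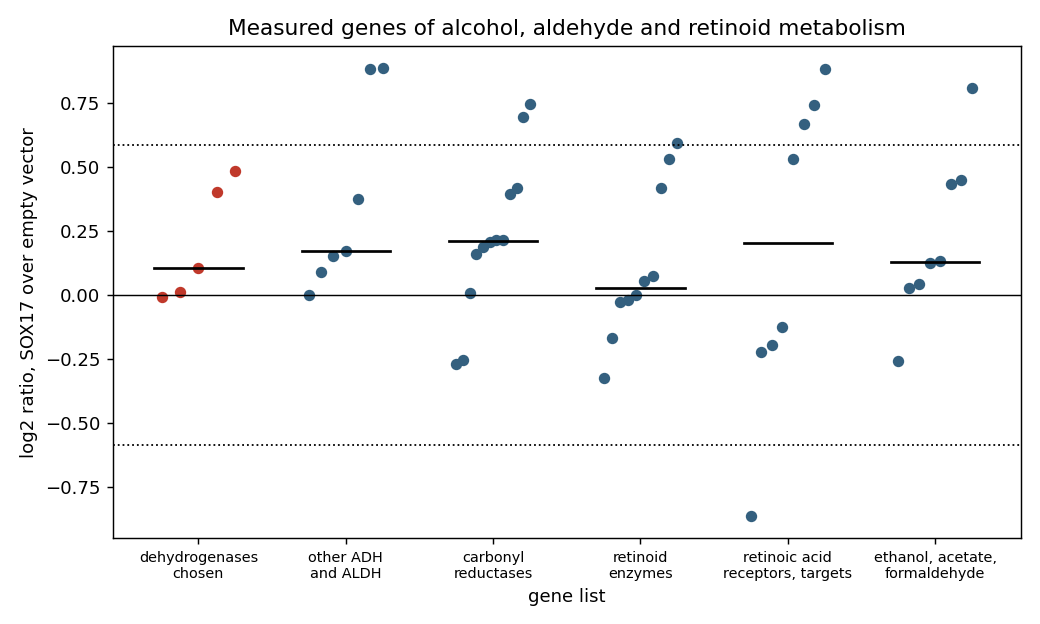
Log2 ratio of SOX17 over empty vector for each measured gene (points) and the median (black bar) of the 5 measured dehydrogenases and of the 5 related lists, with dotted lines at 1.5-fold. The dehydrogenases lie between -0.01 and 0.48 with a median of 0.10, and the medians of the related lists lie between 0.03 and 0.21.

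Each array had a mean intensity of 500.1 without its lowest and highest 2% of values, and 39.6% of probe sets with empty vector and 40.4% with SOX17 reached the floor. All 24 measured probe sets of the poly-A spike-in transcripts read higher with SOX17 (median log2 ratio 0.57), and their part in the ratios of ADH5 and ALDH9A1 was not tested. SOX17 itself read 4.5 and 83.8 on 1 probe set and 19.1 and 6.5 on the other, all below the floor, so these values leave the labels unchecked. Squamous markers were measured for 9 of 10 genes that had a named probe set, with log2 ratios from -0.47 to 0.27 and a median of 0.08. Of 10 leukocyte markers 1 was measured, of 10 fibroblast markers 1, and of 10 liver markers 0.

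**Figure D4:**
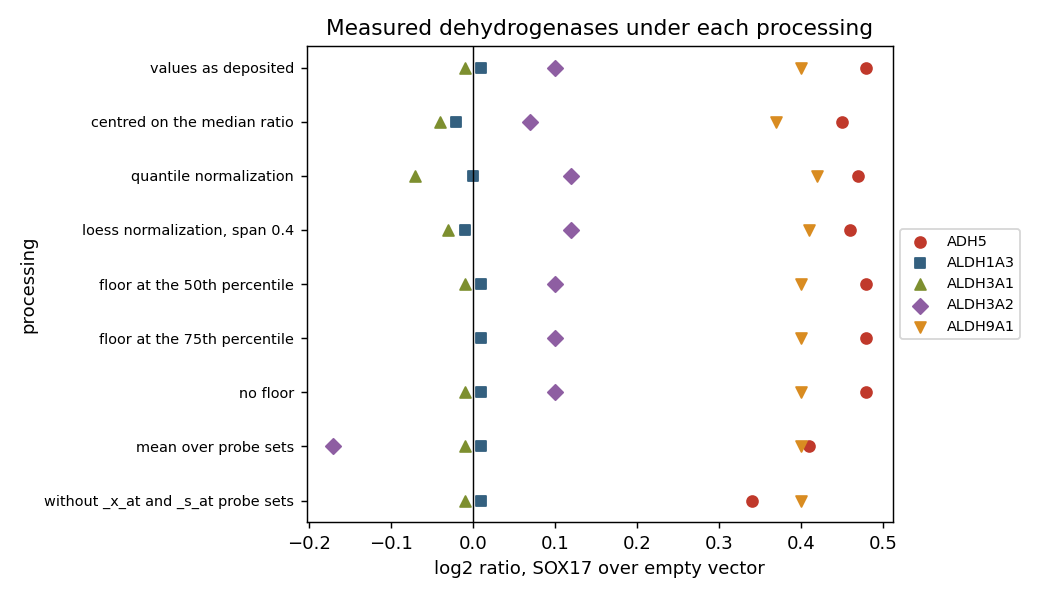
Log2 ratio of SOX17 over empty vector for the 5 measured dehydrogenase genes under the values as deposited and each other processing. ADH5 lies between 0.34 and 0.48 and ALDH9A1 between 0.37 and 0.42, while ALDH3A2 falls to -0.17 with the mean over probe sets. A change of floor cannot move a ratio.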

How the data were processed

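Total RNA was extracted with Trizol and labelled as biotinylated cRNA, per the labels. The submitters' processing notes name GCOS as the software with which the authors obtained the deposited values, 1 linear intensity for each probe set on each array. Its algorithm, its settings and any detection calls are not given in the sources used here. By the values, both arrays had been scaled to a common mean, and they were used as deposited. Probe sets were named through GEO's annotation of the platform, and 62 control probe sets were left out of gene counts.

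The log2 ratio, the floor, the tertiles of level of measured genes and the SD of 1 ratio (the SD of the difference between the 2 probe sets of a gene with the highest level, divided by the square root of 2) were computed from these values. Their precision is limited by having 1 array in each group. Where a gene reached the floor on 1 array only, the fold was taken against the floor. It is a lower bound that leaves out the error of the reading. Alternatives were centring, quantile and loess normalization (span 0.4), a floor at the 50th percentile, a floor at the 75th, no floor, averaging the probe sets of a gene, no _x_at or _s_at probe sets, and a lower (0.32 on the log2 scale) and a higher (2-fold) threshold.

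Named were all 10 members, SOX17 and, of each related list, the genes past 1.5-fold, filled up to 3 by absolute ratio. ESD, ADH4, ALDH1A2 and ALDH5A1 were named after their values were seen. The members and lists were chosen with earlier results of these data known. Symbols and gene order came from RefSeq. The scripts were tested on simulated data and used Python 3.11.15, numpy 2.4.6, pandas 2.3.3, statsmodels 0.14.6 and matplotlib 3.10.9.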

Additional observations from a re-analysis of the deposited data

How the results depend on the processing

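No paired analysis was possible because each group holds 1 array. Across 8 other settings ADH5 lay between 0.34 and 0.48 and ALDH9A1 between 0.37 and 0.42. Many of these settings could not move the ratios. A change of floor leaves the ratio of a measured gene as it was. ALDH9A1, with 1 probe set, could not move with the settings on probe sets either. Its range thus came from centring, quantile and loess normalization alone. ALDH1A3 ranged from -0.02 to 0.01 and ALDH3A1 from -0.07 to -0.01. ALDH3A2 ranged from -0.17 to 0.12, and the low end came from the mean over its 3 probe sets. Without _x_at and _s_at probe sets ALDH3A2 had no value. With no floor all 10 genes counted as measured, of which 2 passed 1.5-fold upward and 2 downward, all 4 from readings under 95; over all 19775 genes 21.4% and 14.6% did so with no floor. With the threshold at 0.32 on the log2 scale, 2 were higher. The median of the measured members ran from 0.01 with the mean over probe sets to 0.25 with a floor at the 75th percentile. No detection calls were used, so the floor alone sets which genes were measured.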
